A study of Mus musculus with 384 samples.

Results

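The endoplasmic reticulum (ER) folds and quality-checks the proteins a cell secretes or places in its membranes. When unfolded proteins build up there, the unfolded protein response is set off through the sensors IRE1, PERK and ATF6, which lead to spliced XBP1, to translation of ATF4 and to cleaved ATF6. These factors raise chaperones, folding enzymes and the machinery that pulls misfolded proteins out for degradation, and in the mammary gland Xbp1 is known for its part in the secretory growth of the luminal cells that make milk. Here 10 genes of this system were described in single mouse mammary epithelial cells, namely the transcription factors Xbp1, Atf4 and Ddit3, the chaperones and folding enzymes Hspa5, Hsp90b1, Calr and Pdia4, the HSPA5 cofactors Dnajb9 and Sdf2l1, and the degradation gene Herpud1. They were chosen by symbol, as 10 of the 49585 genes of the deposited count table, and all 10 reached the level at which a gene was taken as measured, which 11106 genes did.

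RNA of single cells was sequenced with Smart-seq2, a full-length method that was run in 384 wells of 1 plate. All groups carry the same strain label, K8rtta/TetO-DTA/K5CreER/Rosa-Tomato on a mixed background. In this design doxycycline lets the transactivator driven from the keratin 8 promoter switch on diphtheria toxin A, and the Cre of the keratin 5 promoter is tied to the Tomato reporter. Ablated hybrid, ablated luminal and ablated basal cells came from mice killed 1 week after 0.2 mg doxycycline had been injected into the mammary ducts. WT luminal and WT basal cells are labelled wild-type, with no injection recorded for them. Cells had been sorted as Tomato-positive, by CD29 and EpCAM, and as negative for CD45, CD31 and CD140a. Animal of origin, any pooling of animals and the age of the mice are not stated in the labels. Injection, doxycycline, ablation and animal therefore cannot be told apart between ablated and WT groups.

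Each group was accordingly taken as 1 sample, no test was run between groups, and all differences below are descriptions of these libraries. The kept cells numbered 85 ablated hybrid, 76 ablated luminal, 71 ablated basal, 43 WT luminal and 44 WT basal, and held 118310 to 3835005 reads in genes. The median number of genes per cell was 6906, 6389.5, 4503, 5766 and 4621.5 in the same order, so basal cells of both conditions had fewer genes than the other cells. These genes were counted at full depth, and basal cells also had fewer reads. Median reads per cell were 1078728, 1085297, 677373, 1372883 and 978494 in the same order. The sorted labels were met by the keratins, since Krt19 stood at 2670, 5185 and 6157 CPM in hybrid, ablated luminal and WT luminal cells, against 12.2 and 40.6 CPM in ablated basal and WT basal cells. Krt14 stood at 3920 CPM in ablated luminal cells, against 35.4 CPM in WT luminal cells, so the ablated luminal group also held basal keratin. Groups occupied blocks of plate lines, and only neighbouring blocks shared a line, so plate position and group go together.

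Levels are CPM, the reads of a gene scaled to a common total, from the reads of a group's kept cells added together. Their exact Poisson 95% intervals cover counting error only and are far narrower than the spread between cells, so cell medians and shares of cells are given beside them. A cell was taken to detect a gene with at least 5 reads after every cell was thinned to 100000 reads, and shares carry exact Clopper-Pearson 95% intervals over cells. Differences are log2 ratios after adding 10 CPM to both sides, and a gene was past 2-fold at a log2 ratio of 1 or beyond. For each group there was also 1 library of many cells, with 1005368 to 3511761 reads, and its level is set beside that of the single cells. In a library of many cells, fewer cells of a type and less RNA per cell cannot be told apart.

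Between lineages, most of the 10 genes were found in a larger share of hybrid and luminal cells than of basal cells. This held by any margin for 10 of 10 in hybrid over ablated basal cells and in ablated luminal over ablated basal cells. In WT luminal over WT basal cells it held for 9 of 10. The margin was as small as 2.37 points, for Ddit3 in ablated luminal over ablated basal cells. In CPM, Ddit3, Herpud1 and Pdia4 went the other way in both comparisons with ablated basal cells. How many measured genes were higher by any margin was not counted. Genes at large leaned the same way, with median differences of 8.28, 7.80 and 4.65 points in the same order of comparisons. By 20 points or more, 6, 3 and 3 of the 10 genes were higher, beside 19.9, 21.1 and 12.2% of the measured genes. Xbp1 had the widest gap in ablated glands and Calr in WT glands, and Sdf2l1 was nearly missing from both basal groups, while Hspa5 and Atf4 were found in most cells of every group. In ablated basal cells the summed level of Xbp1 was lower and that of Pdia4 higher than in WT basal cells. The shares of cells detecting Xbp1 lay near each other, at 23.9 and 29.5%. Ablated luminal cells had none of the 10 genes past 2-fold against WT luminal cells, beside 15.3% of the measured genes higher and 6.61% lower. In the libraries of many cells 6 of the 10 were past 2-fold lower. Hybrid cells had none of the 10 past 2-fold against ablated luminal cells, beside 6% of the measured genes higher and 4.19% lower. In the libraries of many cells 2 were past 2-fold higher, and on plate line M the median over the 10 genes was -0.57. Against ablated basal cells, hybrid cells were past 2-fold higher in Xbp1 and Sdf2l1.

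**Figure D1:**
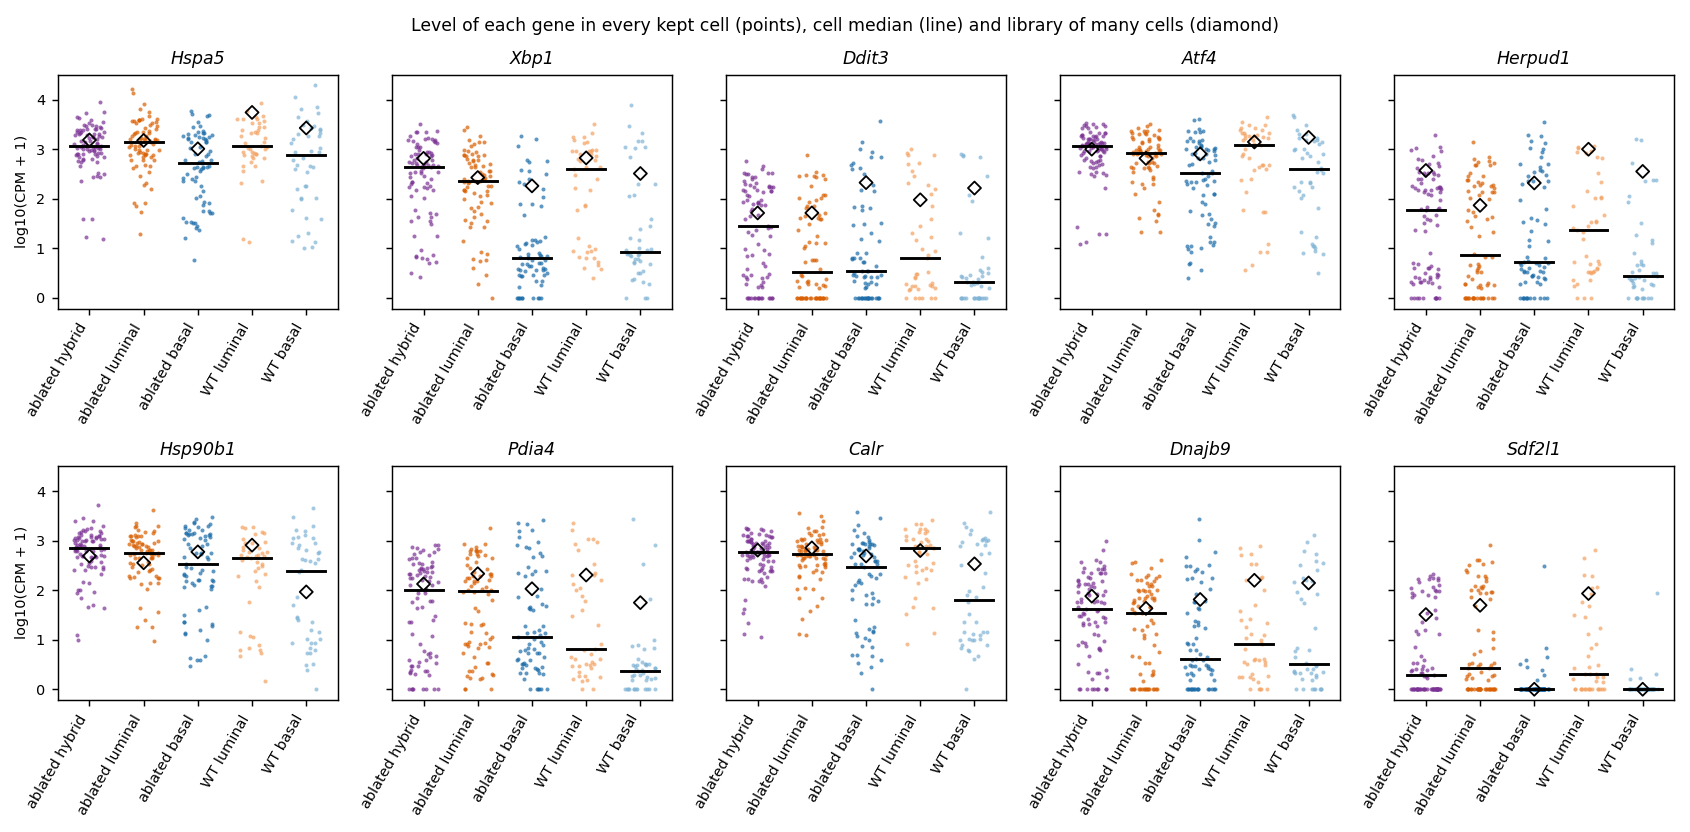
Level of each of the 10 genes as log10(CPM + 1) in every kept cell (points) of 5 groups, with the cell median (line) and the library of many cells (open diamond). Hspa5 and Atf4 have the highest medians in most groups and run down to under 10 CPM in both basal groups, Xbp1 splits into high and near-empty cells that are mostly empty in both basal groups, and Sdf2l1 lies at 0 in nearly all basal cells.

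Xbp1 (ENSMUSG00000020484.18, chr11:5520659-5525893 on the plus strand of GRCm38) encodes the factor that IRE1 activates by splicing its mRNA. Gene counts cannot tell the spliced from the unspliced form. Its level was 699 CPM in hybrid, 489 CPM in ablated luminal, 103 CPM in ablated basal, 665 CPM in WT luminal and 478 CPM in WT basal cells. The summed level hid how the reads lay over cells. The cell medians were 432, 232 and 5.44 CPM in hybrid, ablated luminal and ablated basal cells, and 404 and 7.53 CPM in WT luminal and WT basal cells. Among the 44 WT basal cells, 1 cell with 7825 CPM held 51.1% of all Xbp1 reads. Xbp1 was detected in 77.6% of hybrid cells (67.3 to 86%), 81.6% of ablated luminal (71 to 89.5%) and 23.9% of ablated basal cells (14.6 to 35.5%). In WT glands it was detected in 67.4% of luminal cells (51.5 to 80.9%) and 29.5% of basal cells (16.8 to 45.2%). Without thinning, the hybrid and luminal shares again lay above the basal ones, at 94.1, 90.8 and 40.8% in the ablated groups and 93.0 and 61.4% in WT luminal and WT basal cells. The typical basal cell was close to empty for this gene, because the median of 3 reads in ablated basal and 8.5 reads in WT basal cells lay within the 1 to 11 reads seen in the 5 negative control wells. Single ablated basal cells still reached 1894 CPM.

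Sdf2l1 (ENSMUSG00000022769.7, chr16:17130138-17132383, minus strand) encodes a cofactor that works with HSPA5 and its DNAJ partners in the ER lumen. It was the least abundant of the 10 genes in summed level in every group but ablated luminal cells, with 44.4, 86.5 and 3.49 CPM in hybrid, ablated luminal and ablated basal cells and 54.4 and 2.25 CPM in WT luminal and WT basal cells. Both basal groups were almost without it. It had 0 reads in 87.3% of the basal cells of ablated glands and in 88.6% of those of WT glands, and 1 cell held 93.2% of its reads in the ablated and 96.2% in the WT basal group. It was detected in 23.5% of hybrid (15.0 to 34%), 30.3% of ablated luminal (20.2 to 41.9%) and 1.41% of ablated basal cells (0.0357 to 7.60%). In WT glands the shares were 18.6% of luminal (8.39 to 33.4%) and 2.27% of basal cells (0.0575 to 12%). Without thinning they were 31.8, 36.8 and 1.41% in the ablated groups and 39.5 and 2.27% in WT luminal and WT basal cells. The libraries of many cells had the same split. They held 31.1, 48.4 and 84.5 CPM for hybrid, ablated luminal and WT luminal cells and 0 reads for ablated basal and WT basal cells, where 3 reads would be 1.32 and 1.06 CPM.

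Calr (ENSMUSG00000003814.8, chr8:84841850-84846934, minus strand) encodes calreticulin, a calcium-binding chaperone for glycoproteins. Its level lay within 588 to 776 CPM in all 5 groups, so the groups hardly differed in summed reads. The share of cells with the gene differed far more. It was detected in 96.5% of hybrid (90.03 to 99.3%), 96.1% of ablated luminal (88.9 to 99.2%) and 71.8% of ablated basal cells (59.9 to 81.9%). In WT glands it was detected in 95.3% of luminal (84.2 to 99.4%) and 47.7% of basal cells (32.5 to 63.3%). The WT basal median was 64.2 CPM, against 697 CPM in WT luminal cells. Without thinning, 90.9% of WT basal cells had 5 or more Calr reads, but the negative control wells had 4 to 8, so this last share lies near what an empty well gives.

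**Figure D2:**
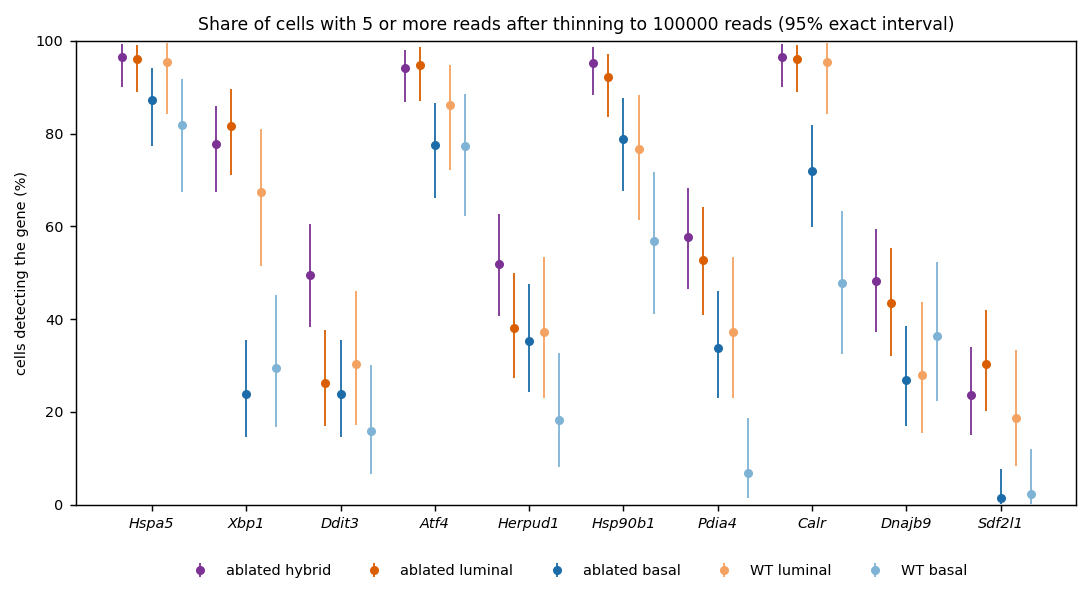
Share of cells that detected each gene (y axis, %; at least 5 reads after thinning to 100000 reads) for the 10 genes and 5 groups, with exact Clopper-Pearson 95% intervals over cells. For Xbp1, Calr and Sdf2l1 the hybrid and luminal shares lie above the basal shares of the same condition, and for Pdia4 the WT basal share of 6.82% is the lowest of the 5.

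Hspa5 (ENSMUSG00000026864.13, chr2:34771970-34777547, plus strand) encodes BiP, the HSP70 chaperone of the ER lumen, which also holds the stress sensors inactive. It was detected in 96.5, 96.1 and 87.3% of hybrid, ablated luminal and ablated basal cells and in 95.3 and 81.8% of WT luminal and WT basal cells. Without thinning the share was 100% in every group, but the negative control wells had 15 to 31 Hspa5 reads, so that wells with no cell also pass 5 reads and the unthinned share is at background. Its level was 1775 CPM in hybrid, 2548 CPM in ablated luminal, 1118 CPM in ablated basal, 2125 CPM in WT luminal and 2236 CPM in WT basal cells. Single cells reached 16184 CPM among ablated luminal and 19664 CPM among WT basal cells. In WT basal cells 4 of 44 cells held 50% of the Hspa5 reads, against 16 of 85 hybrid cells. Per kilobase of exon, Hspa5 and Atf4 were the highest of the 10 genes in level. Atf4 stood at 551, 452, 304, 559 and 441 CPM per kb in hybrid, ablated luminal, ablated basal, WT luminal and WT basal cells, and Hspa5 at 420, 602, 264, 502 and 529. The lowest in each group was Sdf2l1 or Dnajb9, with Dnajb9 at 41, 27, 29.8, 45.3 and 58.5 CPM per kb.

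Hsp90b1 (ENSMUSG00000020048.13, chr10:86690209-86705509, minus strand) encodes GRP94, the HSP90 chaperone of the ER, which folds integrins and Toll-like receptors. Its level was 903, 750 and 680 CPM in hybrid, ablated luminal and ablated basal cells and 546 and 618 CPM in WT luminal and WT basal cells, and it was detected in 95.3, 92.1, 78.9, 76.7 and 56.8% of cells in that order. A pseudogene, 1810014B01Rik, shares 415 of its exon bases (10.3%) on the other strand, and the library kit does not mark strand. Pdia4 (ENSMUSG00000025823.9, chr6:47796141-47813430, minus strand) encodes a disulfide isomerase of the ER. It stood at 209, 232 and 249 CPM in hybrid, ablated luminal and ablated basal cells, and at 290 and 74.6 CPM in WT luminal and WT basal cells. WT basal cells stood apart here. Pdia4 was detected in 6.82% of them (1.43 to 18.7%) and 1 cell held 54.3% of its reads, whereas it was detected in 57.6, 52.6, 33.8 and 37.2% of hybrid, ablated luminal, ablated basal and WT luminal cells.

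Sequence of the promoters was examined because these chaperones are textbook targets of ATF6 and XBP1 through the ER stress element. All 10 genes matched a promoter in RefSeq (GRCm38.p6). The 250 bases before the first listed start of each gene were searched on both strands for CCAAT, any 9 bases and CCACG. This element was found in 33 of 27025 promoters (0.122%), among them those of Hspa5, Hsp90b1 and Calr. The windows below show the element of each with its CCAAT and CCACG in capitals, as the 3 chaperone promoters that hold the pair at this spacing. The start is that of RefSeq, and for Hspa5 it lies downstream of the start of the gene model given above, so this window falls inside that model. The windows lie at chr2:34772020-34772048 (plus strand), chr10:86705633-86705661 (minus), chr10:86705528-86705556 (plus) and chr8:84847070-84847098 (plus).
Hspa5, 65 to 47 bases before the start: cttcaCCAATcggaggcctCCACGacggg
Hsp90b1, 212 to 194 bases before the start: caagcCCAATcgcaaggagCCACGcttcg
Hsp90b1, 107 to 89 bases before the start: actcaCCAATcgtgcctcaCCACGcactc
Calr, 162 to 144 bases before the start: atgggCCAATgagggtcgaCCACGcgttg

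The second form of the element, ATTGG, any 1 base and CCACG, was found in 9 promoters (0.0333%), including that of Herpud1 at chr8:94386372-94386392 (plus strand), 52 to 42 bases before the start, shown with both parts in capitals.
Herpud1: cgctgATTGGgCCACGttgga

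The core TGACGTG bound by XBP1 and ATF6 was found in 436 promoters (1.61%) and in Hspa5 at 157 to 151 bases before the start. The composite of TT, any base and CATCA read by ATF4 and C/EBP factors was found in 954 promoters (3.53%) and in Herpud1 at 112 to 105 bases before the start. These matches are descriptions of letters in this window, and the other genes had none of the 4 motifs there. Any further starts of a gene were not searched. Hspa5, Hsp90b1 and Calr share the element. Ablated basal cells differed from WT basal cells in these 3 genes by log2 ratios of -0.99, 0.14 and 0.05, and by -1.18, -0.05 and -0.13 with median-of-ratios scaling. The log2 ratios were 0.66, 0.40 and 0.24 in hybrid over ablated basal cells, 1.18, 0.14 and 0.34 in ablated luminal over ablated basal cells, and 0.26, 0.45 and 0.02 in ablated luminal over WT luminal cells. They were -0.52, 0.27 and -0.10 in hybrid over ablated luminal cells and -0.07, -0.18 and 0.38 in WT luminal over WT basal cells, so the 3 shared a sign in 3 of these 6 comparisons, and with either other scaling in fewer.

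Atf4 (ENSMUSG00000042406.7, chr15:80255184-80257541, plus strand) encodes the factor that PERK signalling brings out at the level of translation, so its RNA level does not measure its protein. It was present in most cells, at 1299 CPM in hybrid, 1065 CPM in ablated luminal, 716 CPM in ablated basal, 1317 CPM in WT luminal and 1041 CPM in WT basal cells. The cell medians were 1167, 824 and 328 CPM in the ablated groups and 1232 and 402 CPM in WT luminal and WT basal cells. Both basal groups thus had the lowest medians. Atf4 was detected in 94.1, 94.7 and 77.5% of hybrid, ablated luminal and ablated basal cells and in 86 and 77.3% of WT luminal and WT basal cells.

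Ddit3 (ENSMUSG00000025408.15, chr10:127290774-127296288, plus strand) encodes CHOP, a factor downstream of ATF4 that is linked to cell death under long stress. Its summed level was 90.7 CPM in hybrid, 63.6 CPM in ablated luminal, 97.6 CPM in ablated basal, 111 CPM in WT luminal and 101 CPM in WT basal cells. In most cells of each group it was low, with medians of 27.3, 2.37, 2.42, 5.38 and 1.10 CPM. Hybrid cells had the highest share of detecting cells, 49.4% (38.4 to 60.5%), against 26.3% of ablated luminal (16.9 to 37.7%) and 23.9% of ablated basal cells (14.6 to 35.5%). Over WT cells the shares were 30.2% of luminal (17.2 to 46.1%) and 15.9% of basal cells (6.64 to 30.1%). Without thinning they were 64.7, 46.1 and 35.2% in the ablated groups and 48.8 and 22.7% in WT luminal and WT basal cells. Since hybrid cells did not exceed ablated basal cells in CPM, no order between those 2 groups was read from the shares. In ablated luminal cells 5 of 76 cells held 50% of the reads and in ablated basal cells 4 of 71 did. Ddit3 shares 68 exon bases (3.97%) with Mars on the other strand.

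Herpud1 (ENSMUSG00000031770.16, chr8:94386438-94395377, plus strand) encodes a membrane protein of the complex that retrieves misfolded proteins for degradation. It stood at 186, 145 and 210 CPM in hybrid, ablated luminal and ablated basal cells, and at 243 and 96.5 CPM in WT luminal and WT basal cells. It was detected in 51.8, 38.2 and 35.2% of the cells of the ablated groups and in 37.2 and 18.2% of WT luminal and WT basal cells. The reads were held by few cells, with 50% of them in 3 of the 43 luminal cells and 2 of the 44 basal cells of WT glands. Dnajb9 (ENSMUSG00000014905.3, chr12:44205559-44210326, minus strand) encodes ERdj4, which brings HSPA5 to IRE1. It was the only one of the 10 that was highest in WT basal cells in level, at 149 CPM, against 105, 68.9, 76 and 115 CPM in hybrid, ablated luminal, ablated basal and WT luminal cells. That level rested on 3 of 44 cells with 50% of its reads. Its shares were 48.2, 43.4 and 26.8% in the ablated groups and 27.9 and 36.4% in WT luminal and WT basal cells.

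The shares of the 5 other patchy or common genes were also read without thinning, where deeper cells have more chance of 5 reads. In hybrid, ablated luminal, ablated basal, WT luminal and WT basal cells they were 100, 98.7, 87.3, 93.02 and 86.4% for Hsp90b1 and 100, 98.7, 93, 100 and 90.9% for Atf4. Negative control wells had 7 to 29 Atf4 and 3 to 10 Hsp90b1 reads, so wells with no cell can also pass 5 reads. For Pdia4 they were 67.1, 75, 49.3, 51.2 and 18.2%, so WT basal cells stayed lowest. They were 60, 52.6, 43.7, 69.8 and 31.8% for Herpud1, and 75.3, 63.2, 40.8, 53.5 and 43.2% for Dnajb9, with 1 to 10 Herpud1 reads and 0 to 3 reads of Pdia4 and of Dnajb9 in the negative control wells.

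WT luminal cells were set against WT basal cells first, as the comparison of the 2 lineages in glands labelled wild-type. Of the 10 genes 3 were past 2-fold higher, beside 22.3% of the measured genes, and 0 were past 2-fold lower, beside 21.3% of the measured genes. These were Sdf2l1 (log2 ratio 2.39), Pdia4 (1.83) and Herpud1 (1.25), and all 3 pointed the same way in the libraries of many cells, with 3.24, 1.70 and 1.47. The median over the 10 genes was 0.36, and over all measured genes 0.01. The count is therefore not far from the background share. By share of cells, 3 genes were 20 points or more higher in luminal cells, Calr by 47.6, Xbp1 by 37.9 and Pdia4 by 30.4 points, beside 12.2% of the measured genes. Xbp1 had a log2 ratio of 0.47, which became 1.32 when the top cell of each group was left out, and 1.03 in the libraries of many cells. Hspa5 was near equal in single cells, at -0.07, and higher in luminal cells in the libraries of many cells, at 1.04. Hsp90b1 went further apart, with -0.18 in single cells and 3.02 in the libraries of many cells, where 808 CPM in luminal cells stood against 91 CPM in basal cells. Of the 10 genes 5 had the same sign in both kinds of library. On plate line C, with 11 luminal and 10 basal cells, 7 of 10 kept the sign, but Herpud1 (0.41) and Pdia4 (0.74) were under 2-fold there.

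**Figure D3:**
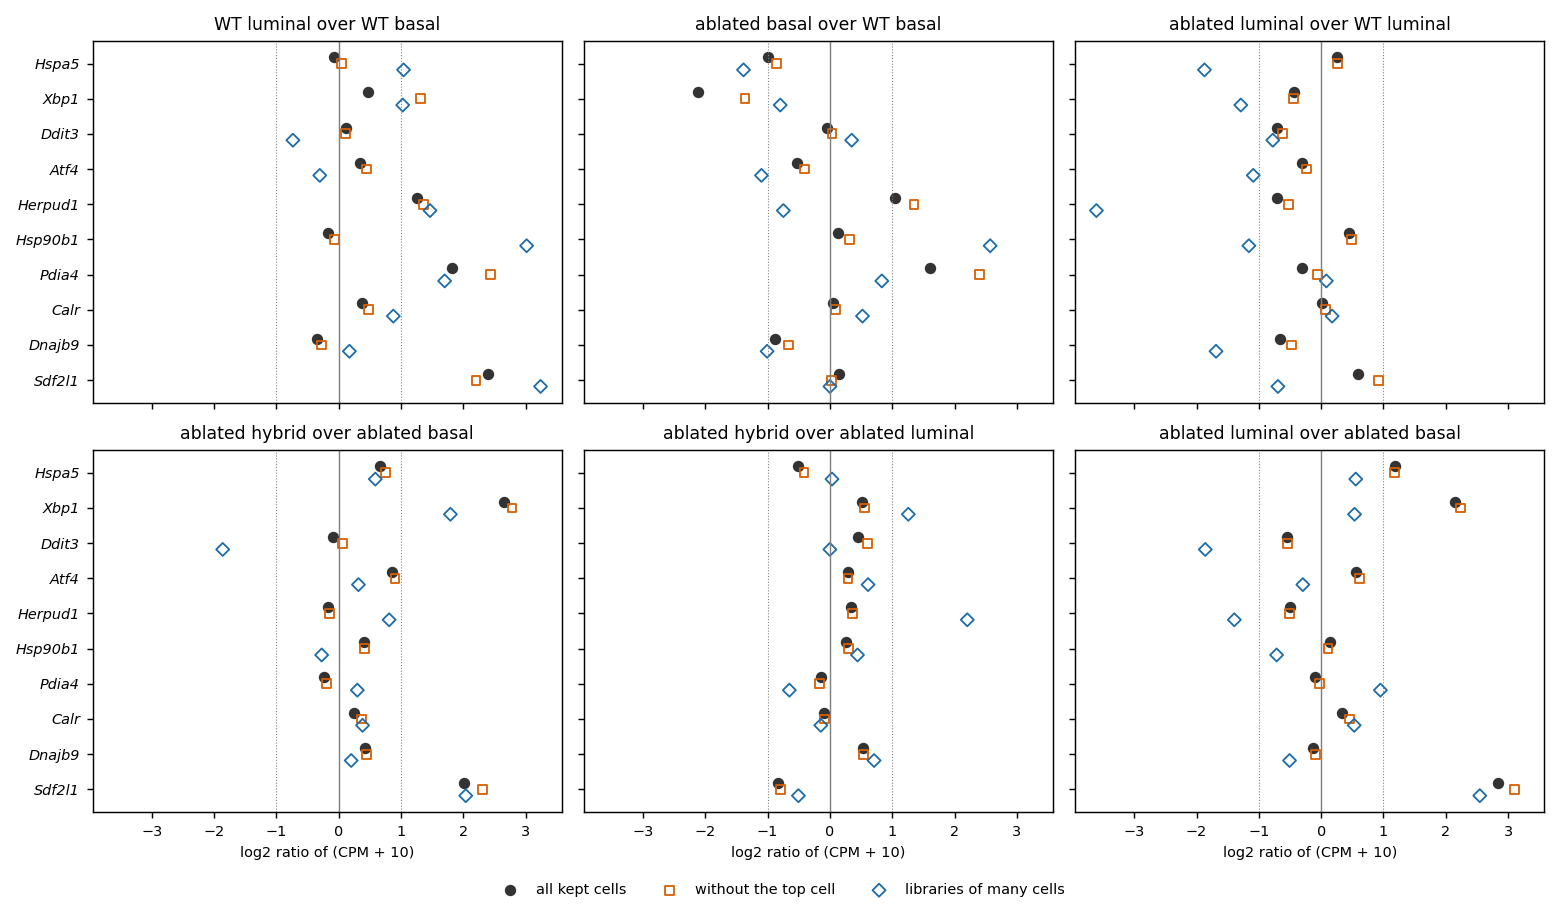
log2 ratio of (CPM + 10) for the 10 genes (rows) in 6 comparisons (panels), from all kept cells (filled circles), with the top cell for that gene left out of either group (squares) and in the libraries of many cells (diamonds). Dotted lines mark 2-fold. Sdf2l1 lies beyond 2-fold on the right in WT luminal over WT basal, hybrid over ablated basal and ablated luminal over ablated basal in all 3 kinds of value, and Hsp90b1 and Herpud1 show the widest gaps between single cells and libraries of many cells.

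Ablated basal cells differed from WT basal cells in both directions. Of the 10 genes 2 were past 2-fold higher, beside 19.8% of the measured genes, and 1 was past 2-fold lower, beside 14.9% of the measured genes. Xbp1 was the lower one, at 103 CPM in ablated basal and 478 CPM in WT basal cells, a log2 ratio of -2.11. The ratio was -1.36 without the top cells, -0.80 in the libraries of many cells and -1.68 on plate line E, so the direction held while the size rested in part on 1 WT basal cell. The typical cell differed little, with Xbp1 medians of 5.44 CPM in ablated basal and 7.53 CPM in WT basal cells. Xbp1 was detected in 23.9 and 29.5% of these cells. Hspa5 was just short of 2-fold at -0.99, with -1.39 in the libraries of many cells and -1.03 on plate line E. With TMM scaling it was past 2-fold, as was Dnajb9, so that 3 genes were lower and 1 was higher. With the minimum of reads per cell doubled, 3 were lower and 1 higher as well. On plate line E, with 9 ablated and 13 WT cells, 4 were lower and 2 higher, among them Ddit3 (-1.86), Dnajb9 (-2.13) and Herpud1 (3.56). Pdia4 was higher, with a log2 ratio of 1.61, of 2.40 without the top cells and of 0.83 in the libraries of many cells. Herpud1 was higher in single cells, at 1.05, and lower in the libraries of many cells, at -0.75, with 208 CPM for ablated basal against 356 CPM for WT basal cells. By share, Pdia4, Calr and Hsp90b1 were 27, 24.1 and 22.1 points higher in ablated basal cells, 3 of 10 genes beside 3.31% of the measured genes. Low measured genes seldom reach 5 reads in a thinned cell and could hardly move by 20 points, which holds the 3.31% down. The median over the 10 genes was 0.00 and over all measured genes 0.05. Markers of fibroblasts moved with this comparison. Of 7 such genes 4 were measured, and the sum over all was 1954 CPM in ablated basal and 889 CPM in WT basal cells, 1806 and 813 CPM of it Dcn. Pdgfra, which encodes the CD140a that the sort excluded, stood at 75.1 and 45.2 CPM, and Lum had no reads in any group. Their part in the results for these genes was not tested.

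Ablated luminal cells had 0 of the 10 genes past 2-fold higher than WT luminal cells, beside 15.3% of the measured genes, and 0 past 2-fold lower, beside 6.61%. The largest differences were those of Ddit3 (-0.71), Herpud1 (-0.71), Dnajb9 (-0.67) and Sdf2l1 (0.58). The median over the 10 genes was -0.31, and that over all measured genes 0.21. In the libraries of many cells 6 of the 10 were past 2-fold lower, and the median was -1.13. Hspa5 there held 1505 CPM for ablated luminal and 5543 CPM for WT luminal cells, and Herpud1 72.9 and 1002 CPM. Over single cells Hspa5 was at 0.26, and at -0.04 with TMM scaling, which brings the median of all measured genes to 0.01. Over single cells, secreted cargo differed more than the 10 genes. Of 12 measured milk and secreted genes 1 was past 2-fold higher and 10 were past 2-fold lower, with a median of -2.75. Csn1s1, a casein, stood at 140 CPM in ablated luminal and 8152 CPM in WT luminal cells, and Spp1, or osteopontin, at 2017 and 20123 CPM. Beside this, the 10 genes had the median of -0.31 given above, and ran from Ddit3 and Herpud1 at -0.71 to Calr at 0.02 and Sdf2l1 at 0.58. In the libraries of many cells Spp1 held 32.7 CPM for ablated luminal and 20257 CPM for WT luminal cells. Csn3 held 2814 and 10298 CPM there, a difference near that of Hspa5.

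Hybrid cells carried basal and luminal keratins and were compared with both ablated neighbours. Against ablated basal cells, 2 of the 10 genes were past 2-fold higher, beside 16% of the measured genes, and 0 lower, beside 8.87%. They were Xbp1, with a log2 ratio of 2.65, and Sdf2l1, with 2.01, and the libraries of many cells gave 1.79 and 2.04. There Ddit3 was past 2-fold lower, at 50.9 CPM for hybrid and 212 CPM for ablated basal cells, a log2 ratio of -1.86. The median over the 10 genes was 0.41, and over all measured genes 0.14. By share 6 genes were 20 points or more higher in hybrid cells, beside 19.9% of the measured genes. Xbp1 led by 53.7 points, and Calr by 24.6, Sdf2l1 by 22.1 and Dnajb9 by 21.5 followed, while for Ddit3 (25.5) and Pdia4 (23.8) the CPM went the other way. Many genes were found in more hybrid than basal cells, since the median difference in share over the measured genes was 8.28 points after thinning.

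Against ablated luminal cells, 0 of the 10 genes were past 2-fold higher in hybrid cells, beside 6% of the measured genes, and 0 lower, beside 4.19%. The widest were Sdf2l1 (-0.83), Dnajb9 (0.54), Hspa5 (-0.52) and Xbp1 (0.51), and the median was 0.27. By share, Ddit3 was 23.1 points higher in hybrid cells, 1 gene of 10 beside 2.68% of the measured genes, a percentage that low genes hold down. In the libraries of many cells Ddit3 was level, at 50.9 CPM for hybrid and 51 CPM for ablated luminal cells, and Xbp1 and Herpud1 were past 2-fold higher, with 1.26 and 2.20. On plate line M, with 17 hybrid and 4 luminal cells, all 10 genes were lower in hybrid cells and the median was -0.57.

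Ablated luminal cells had 3 of the 10 genes past 2-fold higher than ablated basal cells, beside 19.3% of the measured genes, and 0 past 2-fold lower, beside 13.2%. They were Sdf2l1 (2.84), Xbp1 (2.14) and Hspa5 (1.18). In the libraries of many cells the values were 2.55, 0.54 and 0.55, so that Xbp1 and Hspa5 kept the direction there and were under 2-fold. There 1 gene was past 2-fold higher and 2 were lower, Ddit3 at -1.86 and Herpud1 at -1.40. On plate line I, with 9 luminal and 4 basal cells, 6 genes were higher and 1 lower, and the median was 1.72, against 0.24 over all kept cells. By share, Xbp1 was 57.6, Sdf2l1 28.9 and Calr 24.2 points higher in ablated luminal cells, 3 genes of 10 beside 21.1% of the measured genes. Xbp1 had the widest gap in share of the 10 genes in both comparisons with ablated basal cells.

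Within a group, most pairs of the 10 genes were weakly correlated from cell to cell. Spearman's rho was taken over cells thinned to 100000 reads within each group, and the median over the 5 groups is given as a description. All cells of a group share a plate block, and depth and genes per cell enter every pair. Over the 45 pairs the median was 0.12, and 13 pairs were above 0.2. The same was not worked out over all pairs of genes. Whether the 10 genes were closer to each other than genes at large was therefore not read. The highest pair was Hspa5 with Ddit3, at 0.32, with groups ranging over 0.13 to 0.38. Next were Hspa5 with Sdf2l1 (0.26), Hsp90b1 with Pdia4 (0.26) and Ddit3 with Atf4 (0.25), of which the last 2 changed sign in some group. Hspa5 was the closest partner of Xbp1, Ddit3, Dnajb9 and Sdf2l1, whereas Atf4 had values near 0 with Calr, Hsp90b1 and Pdia4. Over hybrid cells, the number of genes per cell had a rho of 0.52 with Sdf2l1 and with Pdia4.

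**Figure D4:**
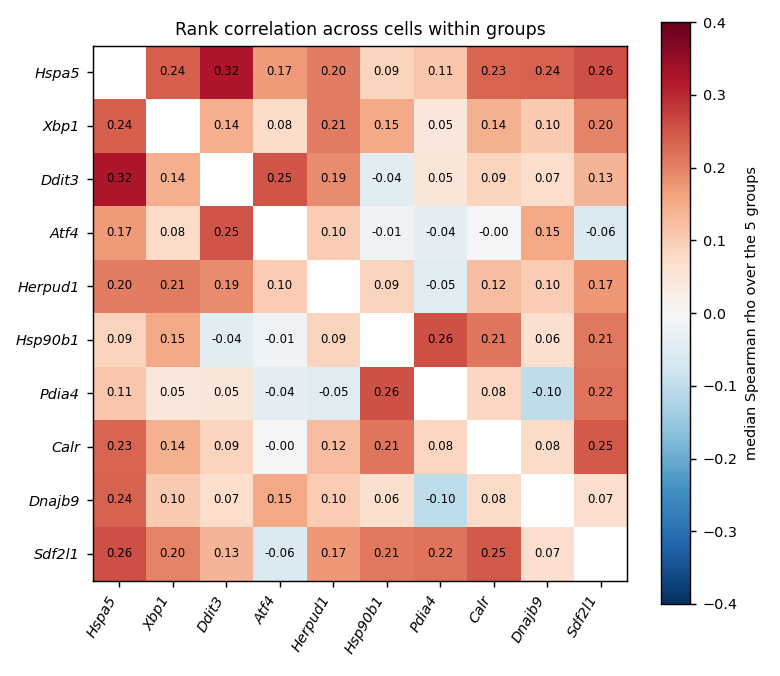
Median over the 5 groups of Spearman's rho between each pair of the 10 genes across the cells of a group (colour and printed value). The row of Hspa5 holds the highest value, 0.32 with Ddit3, and the row of Atf4 lies at 0.10 or below except for Ddit3, Hspa5 and Dnajb9.

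The genes most like 4 of the members in this measure were taken from 2945 genes. The members among these ranked from 11 (Ddit3) to 719 (Hsp90b1) for Hspa5 and from 22 (Hspa5) to 1493 (Pdia4) for Xbp1. They ranked from 38 (Ddit3) to 1994 (Pdia4) for Atf4 and from 1 (Hspa5) to 2404 (Hsp90b1) for Ddit3. For Hspa5 they were Manf (0.38), an ER-resident stress-induced protein, Sqstm1 (0.38), an autophagy adaptor, Ifrd1 (0.36), Errfi1 (0.36) and Ubb (0.36), a ubiquitin gene. For Ddit3 the first of all was Hspa5 and the next Atf4, followed by Errfi1 (0.23), H2-Q6 (0.22) and Nipbl (0.22). Atf4 was closest to Ifrd1 (0.38), Cdkn1a (0.38), Osgin1 (0.38), Tuba1c (0.36) and Hspa8 (0.35). Xbp1 was closest to Rnf4 (0.34), Rela (0.31), Irx2 (0.31), Anapc2 (0.29) and Manf (0.29). With the summed caseins, Atf4 had a rho of 0.28 in 85 hybrid, 0.19 in 76 ablated luminal and 0.43 in 43 WT luminal cells, and Xbp1 one of 0.13, 0.02 and 0.32. Other members differed, with Dnajb9 at 0.30, -0.06 and 0.19 and Pdia4 at -0.14, -0.09 and -0.31. In the WT luminal cells Xbp1 had a rho of -0.50 with the mitochondrial share.

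Other genes of the pathway were counted in lists. In WT luminal over WT basal cells, 8 of 16 measured genes of ER-associated degradation were past 2-fold higher and 0 lower, beside 22.3 and 21.3% of the measured genes, with a median of 1.20, against 0.01 over all measured genes. Os9, a lectin that picks misfolded glycoproteins, stood at 200 CPM in WT luminal and 26.5 CPM in WT basal cells, and Syvn1, the ubiquitin ligase HRD1, at 100 and 15.4 CPM. In the libraries of many cells Os9 held 44.8 and 23.0 CPM and Syvn1 36.8 and 82.5 CPM, so that Syvn1 went the other way there. So did Edem3, the widest of this list, at 51.3 and 0.542 CPM in single cells and 5.97 and 31.5 CPM in the libraries of many cells. Of 23 other ER chaperones and folding enzymes, 6 were higher and 4 lower, with a median of 0.40. Sil1, the exchange factor of HSPA5, was at 132 and 10.5 CPM, and Creld2, a stress-induced ER protein, at 150 and 15.5 CPM. Of 22 measured genes of the translocon and signal peptide processing 2 were higher and 0 lower.

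The arm of PERK and ATF4 was mixed between the WT lineages, with 4 of 28 measured targets past 2-fold higher in luminal cells, 4 lower and a median of -0.15. Nupr1, a stress-induced chromatin protein, was the widest of them, at 964 CPM in WT luminal and 21 CPM in WT basal cells, and at 2888 and 2.12 CPM in the libraries of many cells. Of 12 cytosolic heat-shock chaperones 1 was past 2-fold higher and 5 lower in luminal cells, with a median of -0.79, beside 22.3 and 21.3% of the measured genes. Hsp90ab1, singled out after its values were seen, was on the other side, at 3041 CPM in WT luminal and 2369 CPM in WT basal cells. Bag3, a cochaperone of HSP70, stood at 51 CPM in WT luminal and 400 CPM in WT basal cells, and Hsp90aa1 at 154 and 460 CPM. Of 6 measured stress sensors and their proteases 1 was higher and 1 lower. The lower one was Atf6, at 52.9 CPM in WT luminal and 148 CPM in WT basal cells, which turned in the libraries of many cells to 92.5 and 10.6 CPM.

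In ablated basal over WT basal cells, 8 of 16 genes of ER-associated degradation were past 2-fold higher and 2 lower, beside 19.8 and 14.9% of the measured genes, with a median of 0.93. Derl2, a channel component, was among the lower ones, at 24.8 CPM in ablated basal and 176 CPM in WT basal cells, but turned in the libraries of many cells to 25.1 CPM and no reads. Edem1 was the other, at 18.9 and 86.2 CPM, with 26.8 and 34.7 CPM in the libraries of many cells. Among the higher ones, Herpud2 stood at 106 and 21.7 CPM and Erlec1 at 82.8 and 19.3 CPM. Both kept the direction in the libraries of many cells, at 84.9 and 3.90 CPM and at 110 and 0.354 CPM. Of 23 other ER chaperones and folding enzymes 5 were higher and 2 lower (median 0.25), with Pdia3, a disulfide isomerase that works with calreticulin, at 965 and 371 CPM, and Creld2 at 114 and 15.5 CPM. Among 28 targets of PERK and ATF4, 4 were higher and 5 lower (median -0.08). Psat1, an enzyme of serine synthesis, stood at 134 and 15.2 CPM, but held 0.440 and 0.354 CPM in the libraries of many cells. Vldlr stood at 92.6 and 0.152 CPM, with 129 and 6.73 CPM in the libraries of many cells. Aars was lower, at 3.29 and 64.4 CPM, with 2.20 and 1.77 CPM in the libraries of many cells.

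In ablated luminal over WT luminal cells, where 15.3% of the measured genes were past 2-fold higher and 6.61% lower, the lists lay near 0, with medians of 0.10 for other ER chaperones (4 higher and 0 lower), -0.22 for degradation (1 and 1), 0.04 for the translocon (0 and 0) and -0.09 for targets of PERK and ATF4 (3 and 3). Cytosolic heat-shock chaperones had a median of 0.41, with 2 of 12 higher. They were Hspb1, at 190 CPM in ablated luminal and 21.3 CPM in WT luminal cells, and Bag3, at 154 and 51 CPM, and both pointed the same way in the libraries of many cells. For hybrid over ablated basal cells (16 and 8.87% of the measured genes) the medians were 0.12 for other ER chaperones (6 of 23 higher and 0 lower) and 0.19 for degradation (3 of 16 and 0). For hybrid over ablated luminal cells (6 and 4.19%) they were -0.05 (0 and 1) and -0.08 (0 and 0). Nupr1 stood out again, at 223 CPM in hybrid, 810 CPM in ablated luminal and 11.5 CPM in ablated basal cells.

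Plasma cells make much ER chaperone RNA, so their markers were read in every group. Of 9 plasma and B cell genes 0 were measured, and their sum was 20.3, 17.3 and 14.4 CPM in hybrid, ablated luminal and ablated basal cells and 6.95 and 0.0433 CPM in WT luminal and WT basal cells. Cd79b and Ms4a1 had no reads in any group. Endothelial markers summed to at most 7.39 CPM. Of 8 other immune genes, Ptprc (CD45) was at most 0.438 CPM, and nearly all of the sum was Cd14, at 1454, 517 and 3.02 CPM in the ablated groups and 2195 and 34 CPM in WT luminal and WT basal cells.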

How the data were processed

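The authors deposited raw read counts for each gene in each well, with no scaling. Per the submitters' processing notes, HTSeq 0.6.0, STAR 2.5.2b, cutadapt 1.13 and Seurat were used with GRCm38, in roles that are not stated. Which annotation was counted is likewise not given in the sources. Gene models and symbols were taken from GENCODE M21 and promoters from RefSeq.

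Of 374 single-cell wells, 319 were kept with at least 100000 reads, 1000 genes and at most 20% mitochondrial reads, and all could be thinned to 100000 reads. Doublets were neither called nor removed. The 10 genes and the lists were chosen with earlier results of these data known, and the rule of 20 points was set after seeing the data. Measured genes averaged 5 CPM or more across the 5 groups. A gene near that level seldom has 5 reads in a thinned cell, so it could hardly differ by 20 points in share. The percentages of measured genes at 20 points or more are held down by such genes. A floor of 3 reads is 0.0313, 0.0345, 0.0509, 0.0422 and 0.0650 CPM in hybrid, ablated luminal, ablated basal, WT luminal and WT basal cells, and intervals cover counting error only, since PCR copies cannot be told from molecules here. Promoter windows end at the first listed RefSeq start of each gene.

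Genes outside the 10 were drawn from a rule: in each list and comparison, up to 4 with the widest log2 ratio among those at 50 CPM or more in the higher group, and the 5 with the highest median rho for Hspa5, Xbp1, Atf4 and Ddit3. From the lists, only some of the genes the rule gave are named, so those named are not always the widest. Marker genes and the Mars and 1810014B01Rik overlaps are named besides. Python 3.11.15, numpy 2.4.6, pandas 2.3.3, scipy 1.17.1 and R 4.3.3 with edgeR 4.0.16, for TMM factors, were used. The log2 ratios were tested on simulated counts. Each alternative altered a single choice, among the cell filters, the weight of cells, the scaling, the CPM added, the top cell, the kind of library, the plate line, the detection rule or, added after seeing the data, subtraction of negative-well reads.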

Additional observations from a re-analysis of the deposited data

Results flagged for a closer look

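The ratio of ablated to WT cells had opposite signs in basal and luminal cells for 3 of the 10 genes, and the difference between the lineages was not tested. For Hspa5 the log2 ratio in basal cells minus that in luminal cells was -1.25, for Herpud1 it was 1.75 and for Pdia4 it was 1.92. Hspa5 was lower in the ablated library of many cells in both lineages, by log2 ratios of -1.39 in basal and -1.87 in luminal cells, and its sign in single luminal cells turns with TMM scaling. In the 5 negative control wells, Sdf2l1 had 1 read in 1 well and 0 in the others. The rule for outliers flags any gene with reads in only 1 of the wells, so this flag says nothing about that well. How often chance flags such low counts was not worked out, and 10 genes were read.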

How the results depend on the processing

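Each group is 1 sample, so no value here carries an error over animals, and the depth of most concern is that of single cells, where medians of a few reads lie within those of the negative control wells. Medians over the 10 genes were judged against the range of the 10 ratios without the lowest and the highest. Cell filters, weights, scalings and added CPM left them inside this wide range, where a median can still move. For ablated luminal over WT luminal cells it went from -0.31 to -0.60 with TMM and -0.64 with median-of-ratios scaling. For ablated luminal over ablated basal cells it went from 0.24 to 0.05 and 0.02. In the libraries of many cells the median for ablated luminal over WT luminal cells was -1.13, and Herpud1 in ablated basal over WT basal cells turned to -0.75. Within plate line M, which holds 4 luminal cells, the median for hybrid over ablated luminal cells was -0.57. Within plate line I, which holds 4 basal cells, the median for ablated luminal over ablated basal cells was 1.72 in place of 0.24, and within plate line E that for ablated basal over WT basal cells was -0.42 in place of 0.00. The cause was not tested.

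Across all settings, Sdf2l1 stayed past 2-fold in 12 of 12 for WT luminal over WT basal cells (2.20 to 4.09), in 11 of 11 for hybrid over ablated basal (1.52 to 3.34) and in 12 of 12 for ablated luminal over ablated basal cells (2.40 to 4.28). Xbp1 stayed past 2-fold in 11 of 11 for hybrid over ablated basal cells (1.79 to 2.78), in 11 of 12 for ablated luminal over ablated basal (0.54 to 2.62) and in 11 of 12 for ablated basal over WT basal cells (-2.30 to -0.80). Pdia4 did so in 11 of 12 for ablated basal over WT basal (0.83 to 2.40) and in 11 of 12 for WT luminal over WT basal cells (0.74 to 2.43), Herpud1 in 8 of 12 (-0.75 to 3.56) and in 10 of 12 (0.41 to 1.47) for the same pairs. Hspa5 did so in 8 of 12 for ablated luminal over ablated basal cells (0.55 to 2.58). TMM or median-of-ratios scaling turned the sign of 6 of 60 ratios, all of 0.26 or smaller in size. No paired analysis was possible because no label ties cells of different groups to an animal and no test was run.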

Other observations

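The number of the 10 genes found in a cell differed between groups. The median was 7 in hybrid, 7 in ablated luminal and 5 in ablated basal cells, and 6 in WT luminal and 4 in WT basal cells. Genes at large were also fewer in basal cells, with unthinned medians of 6906, 6389.5, 4503, 5766 and 4621.5 genes in that order. No matching count over the measured genes was taken after thinning, so nothing particular to the 10 genes was read. The summed level of the 6 chaperones and cofactors Hspa5, Hsp90b1, Calr, Pdia4, Dnajb9 and Sdf2l1 had cell medians of 2938, 3200 and 2606 CPM in the ablated groups and 3566 and 1966 CPM in WT luminal and WT basal cells. Single cells ranged up to 19059 CPM in ablated luminal and 24125 CPM in WT basal cells.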
